A study of Mus musculus with 8 samples.

Results

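Cytoplasmic dynein 1 is the motor that carries cargo along microtubules toward their minus ends, which in an axon means from the periphery back to the cell body. Its heavy chain holds the ATP-driven motor domain, intermediate and light intermediate chains build the tail that grips cargo, and 3 families of light chains dimerise on the intermediate chains. Dynactin, whose largest subunit p150 is encoded by Dctn1, joins dynein to cargo adaptors and to the microtubule, and mutations of Dync1h1 or Dctn1 are known causes of motor neuron disease in mice or people. The genes described here are a chosen list of 10 of the dynein 1 and dynactin genes on the array. The list holds Dync1h1, Dync1i1, Dync1i2, Dync1li1, Dync1li2, Dynll1, Dynll2, Dynlrb1, Dynlt3 and, of the dynactin subunits, Dctn1 alone. These genes were taken by the gene name printed beside each probe, which gave 12 probes of 55681, and all 10 were among the 15344 tested.

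RNA came from sciatic nerves of 4 SOD1G93A mice, a transgenic model of amyotrophic lateral sclerosis that expresses a mutant form of human SOD1, and of 4 wild-type mice. All were males aged 60 days, and the series title calls this age presymptomatic. Each nerve sample was labelled with Cy3 and hybridised on a 2-colour Agilent array beside 1 common Cy5-labelled pool of heart, liver and kidney RNA from newborn mice of both genotypes. No dyes were swapped. The level given for each gene is the log2 ratio of nerve over that pool, so 1 unit is a doubling relative to the pool.

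In Cy3, the share of spots well above background was 35.5% to 41.7% over the arrays, with 0 saturated. All 12 listed myelinating Schwann cell markers were measured, and their mean, each centred on its own average, ranged from -0.11 to 0.45 on SOD1G93A and from -0.31 to 0.18 on wild-type arrays. Of the 11 listed neuronal genes 7 passed, namely Snap25, Syp, Tubb3, Nefl, Nefm, Nefh and Stmn2. Rbfox3, Syt1, Chat and Elavl4 were not well above background on any array. Skeletal muscle markers set the arrays apart: the mean of 10 of 12 markers, each centred on its own average, ranged from -0.97 to -0.61 on SOD1G93A arrays and was 2.80, 1.87, -0.75 and -0.57 on wild-type replicates 1 to 4. The mean of the 8 endothelial markers ranged from -0.45 to -0.11 on SOD1G93A and from 0.03 to 0.44 on wild-type arrays. The mean of 8 of 9 macrophage markers was -0.33, 0.35, 0.38 and 0.58 on SOD1G93A replicates 1 to 4, against -0.18, -0.18, -0.43 and -0.19 on wild-type replicates 1 to 4. The means of the smooth muscle and pericyte markers were 1.00 and 0.78 on wild-type replicates 1 and 2, and those of 8 of 9 adipocyte markers 1.16 and 0.93, above the other 6 arrays in both lists. On the first principal component SOD1G93A replicate 1 lay at 30.3 and wild-type replicate 1 at -33.7, with the others between -14.7 and 10.9. In whole nerve RNA, a change in the number of cells of a type and a change in RNA per cell cannot be told apart.

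No dynein or dynactin gene differed between SOD1G93A and wild-type nerves past the threshold over all genes. Under limma, 0 of the 10 had an adjusted p under 0.05, against 25 of 15344 genes or 0.163% overall. Unadjusted p was under 0.05 for 2 of the 10, the light chain genes Dynll2 and Dynlrb1, against 11.4% of all genes; both were higher, against 4.83% of all genes. The 4 SOD1G93A values lay above all 4 wild-type values for these same 2 genes, as they did for 3.65% of all genes. Groups were separated in either direction for 7.97% of all genes. An exact permutation test over the 8 arrays, 2-sided and unadjusted, gave 0.0286 for these 2 genes, the smallest p that 4 against 4 arrays allow and the one that any pair of separated groups gives, and 0.0857 to 0.886 for the other 8. The difference was above 0 for 8 of the 10 genes and for 45.3% of all genes. The median difference was 0.16 on the log2 scale for the 10 genes and -0.02 for all genes tested.

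The heavy chain gene Dync1h1, which encodes the motor itself, was the member with the smallest difference. Its log2 ratios were 1.22, 1.10, 1.10 and 1.16 on SOD1G93A replicates 1 to 4, against 0.96, 1.22, 1.06 and 1.30 on wild-type replicates 1 to 4. The SOD1G93A values lay inside the wild-type range. The mean was 1.14 ± 0.06 in SOD1G93A and 1.13 ± 0.16 in wild-type nerves (SD, n = 4 each), a difference of 0.01 ± 0.09 (SE, limma adjusted p = 0.977). The 95% interval, from -0.20 to 0.22, leaves room for a shift of either sign of about that size. Without wild-type replicate 1 the difference was -0.05 and on the 6 arrays numbered 2 to 4 it was -0.07, so no direction is given. Its probe lies at chr12:111904896-111904955 on the plus strand of mm9, at base 14139 of the transcript, and read 5373 to 9405 intensity units in Cy3 over a local background of 40 to 52.

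The intermediate chains tie the heavy chains to dynactin and carry the light chains. Dync1i2, the form that most tissues use, had log2 ratios of 0.82, 0.94, 0.97 and 0.90 in SOD1G93A nerves, against 0.88, 1.07, 1.17 and 1.09 in wild-type nerves. Only wild-type replicate 1 fell among the SOD1G93A values. The difference was -0.14 ± 0.09 (SE, limma adjusted p = 0.554), and it stayed below 0 in all 20 alternative fits, between -0.20 and -0.08.

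Dync1i1, the form best known from neurons, had the largest difference of the 10 genes and also the widest spread. Its log2 ratios were 0.04, 0.71, 1.08 and 0.48 in SOD1G93A nerves, against 0.17, 0.14, 0.42 and -0.08 in wild-type nerves. SOD1G93A replicates 2, 3 and 4 lay above all wild-type arrays, and SOD1G93A replicate 1 lay among them. The macrophage marker mean had SOD1G93A replicates 2, 3 and 4 above all wild-type arrays too, and SOD1G93A replicate 1 not, and its part in the Dync1i1 difference was not tested. The difference was 0.42 ± 0.20 (SE, limma adjusted p = 0.476), with a 95% interval from -0.04 to 0.88. It was 0.25 without SOD1G93A replicate 3 and 0.60 without SOD1G93A replicate 1, and neither value passed. The spot was dim, at 166 to 368 units in Cy3 over a local background of 41 to 53. With the scanner program's own processed signals the difference was 0.78 (limma adjusted p = 0.487).

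A second Dync1i1 probe was well above background in Cy3 on 1 of 8 arrays and was therefore not tested. It shares 18 of its 60 bases with the first. The last 30 bases of the first probe (chr6:5977965-5977994) and the first 30 of the second (chr6:5977977-5978006), on the plus strand of mm9, are shown to mark that overlap, with the shared bases in capitals:
Dync1i1 first probe, end: atttattgtaatGTGCTGCATGGAACATAT
Dync1i1 second probe, start: GTGCTGCATGGAACATATttatttgaaagc
On the second probe the log2 ratios were -0.42, 0.14, 0.52 and 0.39 in SOD1G93A nerves, against -0.21, -0.44, 0.07 and -0.20 in wild-type nerves. As on the first probe, SOD1G93A replicates 2, 3 and 4 lay above the wild-type arrays and SOD1G93A replicate 1 did not. The 2 probes share a target and an array, so they are not separate measurements of the gene.

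The light intermediate chains contact the cargo adaptors. Dync1li2 had log2 ratios of 1.02, 1.07, 0.91 and 0.93 in SOD1G93A nerves, against 0.89, 0.78, 0.67 and 0.93 in wild-type nerves. Wild-type replicate 4 overlapped the lower SOD1G93A arrays. The difference was 0.16 ± 0.08 (SE, limma adjusted p = 0.502). With the scanner program's processed signals it was 0.28 (limma adjusted p = 0.376), and there the groups did not overlap. The share of all genes separated under that processing was not counted. Dync1li1 ranged from -0.27 to 0.21 in SOD1G93A nerves and from -0.11 to 0.20 in wild-type nerves, with a difference of -0.11 ± 0.12 (SE, limma adjusted p = 0.743). It was -0.21 without SOD1G93A replicate 1, -0.05 without SOD1G93A replicate 3 or without wild-type replicate 4, and 0.02 in the Cy3 channel alone, so its sign is not settled.

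The light chain genes held both members with no overlap between groups. Dynll2 encodes one of a pair of closely related LC8 light chains, small dimers that bind many proteins besides dynein. Its brighter probe (chr11:87793164-87793223, minus strand, mm9) gave log2 ratios of 1.39, 1.34, 1.34 and 1.38 in SOD1G93A nerves, against 1.15, 1.10, 0.70 and 1.23 in wild-type nerves. The SOD1G93A arrays were close together, and the wild-type arrays spread lower, most of all replicate 3. The mean was 1.37 ± 0.03 in SOD1G93A and 1.05 ± 0.23 in wild-type nerves (SD, n = 4 each). The difference of 0.32 ± 0.11 (SE) is a 1.25-fold ratio, with a 95% interval from 0.06 to 0.58 and a limma adjusted p of 0.343. Without wild-type replicate 3 the difference was 0.20 (limma adjusted p = 0.510).

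Dynll2 also had a second probe, printed here because it lies apart from the first and nearer the start of the transcript, at base 465 against base 2279. Its 60 bases have no stop codon in any of the 3 forward reading frames. It lies at chr11:87794978-87795037 on the minus strand of mm9:
Dynll2 second probe: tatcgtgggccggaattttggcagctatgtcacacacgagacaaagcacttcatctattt
It gave log2 ratios of 0.42, 0.21, 0.20 and 0.35 in SOD1G93A nerves, against 0.03, 0.07, -0.08 and 0.19 in wild-type nerves. The groups did not overlap here either, although wild-type replicate 4 came close to the lowest SOD1G93A array. The difference was 0.24 ± 0.09 (SE, limma adjusted p over all kept probes = 0.376). Whether the second probe also reads RNA of the closely related Dynll1 was not tested. The 2 probes, read on the same arrays, gave differences of like size and sign, with neither called. Their ratios to the pool differed by 1.03 ± 0.12 (SD, n = 8 arrays), so ratios of different probes are not levels that can be set against each other.

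Dynll1, the other LC8 gene, had log2 ratios of 1.57, 1.51, 1.31 and 1.29 in SOD1G93A nerves, against 1.10, 1.16, 1.31 and 1.44 in wild-type nerves. The groups overlapped, with wild-type replicates 3 and 4 among the SOD1G93A values. The difference was 0.17 ± 0.11 (SE, limma adjusted p = 0.580), and it was 0.06 on the arrays numbered 2 to 4.

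Dynlrb1, a roadblock light chain, had log2 ratios of 1.59, 1.57, 1.60 and 1.65 in SOD1G93A nerves, against 0.96, 1.39, 1.45 and 1.45 in wild-type nerves. The SOD1G93A arrays were close together, and wild-type replicate 1 stood well below the other wild-type arrays. The mean was 1.60 ± 0.03 in SOD1G93A and 1.31 ± 0.24 in wild-type nerves (SD, n = 4 each). The difference of 0.30 ± 0.12 (SE) is a 1.23-fold ratio, with a 95% interval from 0.03 to 0.56 and a limma adjusted p of 0.379. Without wild-type replicate 1 the difference was 0.18 (limma adjusted p = 0.508). That array had the highest muscle marker mean, 2.80, and wild-type replicate 2 the next highest, 1.87, with a Dynlrb1 ratio of 1.39. The part of muscle RNA in the difference was not tested.

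Dynlt3, a Tctex-type light chain gene on the X chromosome, had log2 ratios of 1.59, 1.51, 1.59 and 1.62 in SOD1G93A nerves, against 0.98, 1.47, 1.47 and 1.72 in wild-type nerves. The wild-type arrays spanned the SOD1G93A values. The difference was 0.16 ± 0.14 (SE, limma adjusted p = 0.683) and shrank to 0.02 without wild-type replicate 1.

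Dctn1 encodes dynactin p150, which reaches to the microtubule and binds the dynein intermediate chain. Its log2 ratios were 1.36, 1.07, 1.25 and 1.25 in SOD1G93A nerves, against 1.16, 1.11, 1.09 and 1.05 in wild-type nerves. SOD1G93A replicates 1, 3 and 4 lay above all wild-type arrays, and SOD1G93A replicate 2 lay within their range. The mean was 1.23 ± 0.12 in SOD1G93A and 1.10 ± 0.05 in wild-type nerves (SD, n = 4 each), a difference of 0.13 ± 0.08 (SE, limma adjusted p = 0.573) with a 95% interval from -0.05 to 0.32. The spot was bright, at 5101 to 9965 units in Cy3 over a local background of 33 to 40.

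**Figure D1:**
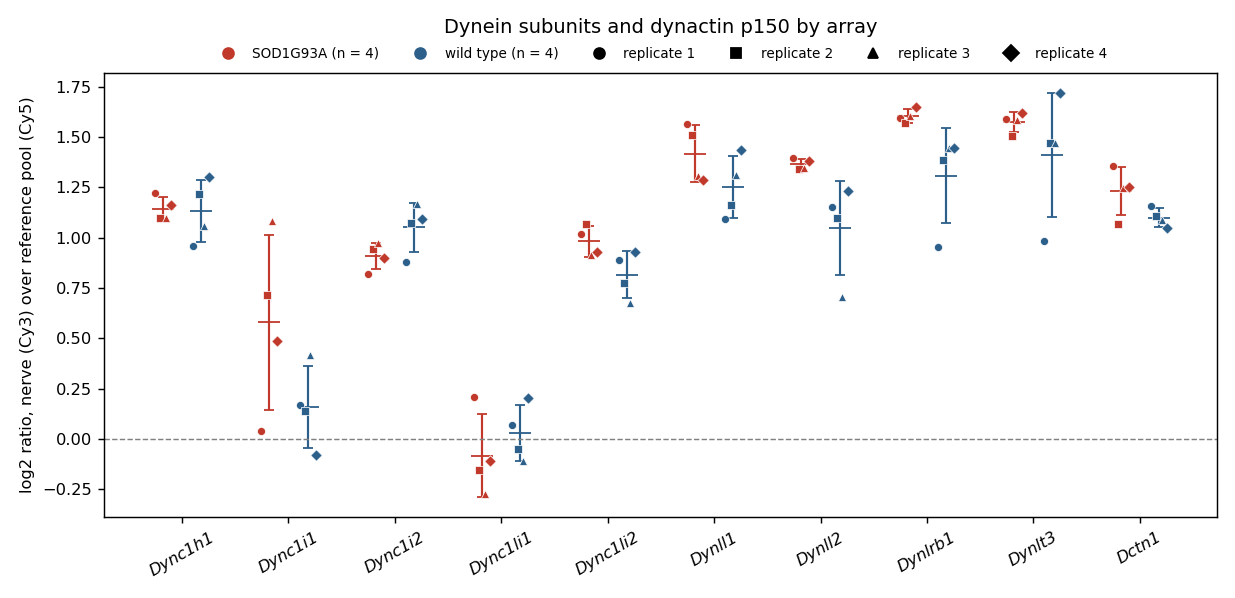
Log2 ratio of nerve (Cy3) over the reference pool (Cy5) for the 10 genes, SOD1G93A arrays in red and wild-type arrays in blue, each symbol 1 array and each bar the mean with its SD (n = 4 per group). Only Dynll2 and Dynlrb1 show no overlap between groups, and the low wild-type point of Dynlrb1, at 0.96, is replicate 1.

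Across the members, wild-type replicate 1 held the lowest ratio for 4 of the 10 genes and SOD1G93A replicate 1 the highest for 4. SOD1G93A replicate 1 also had the lowest unnormalised Cy3 intensity on all 12 probes, and wild-type replicate 1 the highest on 6 of 12. Over all kept probes these arrays also had the lowest and the highest median Cy3 intensity, 374.0 on SOD1G93A replicate 1 and 713.5 on wild-type replicate 1, with the others between 526.7 and 597.7. The median over the 10 genes, each centred on its own average, was 0.13, 0.06, 0.05 and 0.06 on SOD1G93A replicates 1 to 4 and -0.14, -0.06, -0.05 and 0.07 on wild-type replicates 1 to 4. The arrays at either end of this measure were the same pair that lay at the ends of the first principal component. The myelinating Schwann cell marker mean also had its extremes on that pair, at 0.45 on SOD1G93A replicate 1 and -0.31 on wild-type replicate 1, and its part in the member values was not tested. On the arrays numbered 2 to 4, which leave that pair out, the median difference of the 10 genes was 0.09, with 7 of 10 above 0.

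The deposited files also allow the reference channel to be read by itself. The same pool was on every array, yet the Cy5 signal of Dynll2 differed between SOD1G93A and wild-type arrays by -0.14 ± 0.05 (SE) on the log2 scale, and that of Dynlrb1 by -0.09 ± 0.04 (limma adjusted p = 0.244 and 0.331). In the Cy3 channel alone the differences were 0.18 ± 0.12 for Dynll2 and 0.20 ± 0.11 for Dynlrb1 (SE, limma adjusted p = 0.569 and 0.466). In Cy3 alone the groups of Dynll2 overlapped and those of Dynlrb1 did not. With median centring in place of loess both genes overlapped. The second Dynll2 probe differed by 0.28 in Cy3 and by 0.01 in Cy5. Its groups also overlapped in Cy3 alone, with SOD1G93A replicate 3 at 10.06, below wild-type replicate 4 at 10.16. For Dynll1, Dctn1 and Dync1i1 the Cy3 differences were 0.25, 0.13 and 0.41, against Cy5 differences of 0.02, -0.0003 and -0.05. Dync1li1 differed by 0.02 in Cy3 and by 0.10 ± 0.08 (SE) in Cy5. Over all genes, unadjusted p was under 0.05 for 14.4% in Cy5 and for 12.4% in Cy3, and 38 and 36 genes had a limma adjusted p under 0.05. The 4 arrays of a genotype shared 1 column of the slide, so column and genotype cannot be told apart.

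**Figure D2:**
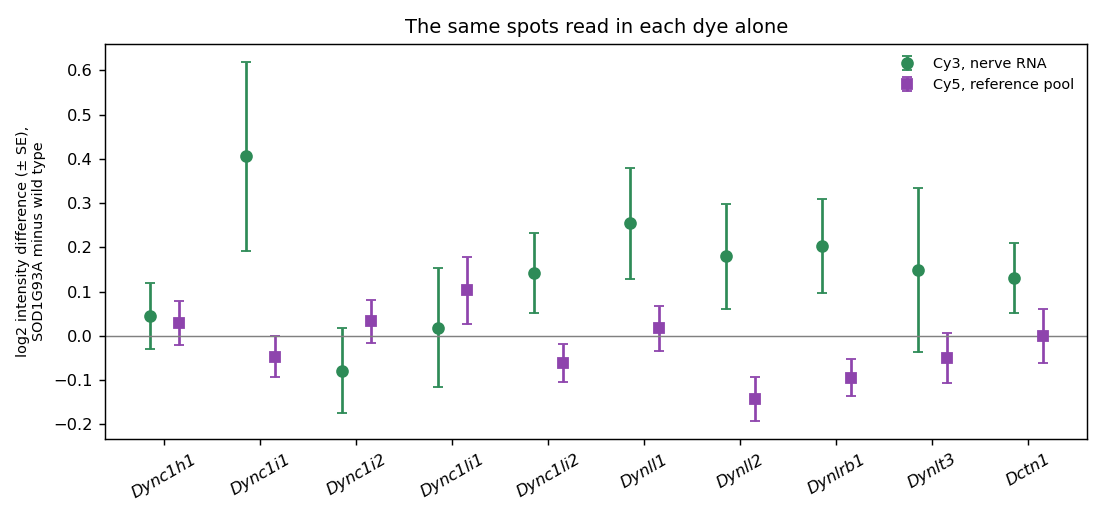
Difference in log2 intensity between SOD1G93A and wild-type arrays with its SE (4 arrays per group) for the nerve dye (Cy3, circles) and the reference dye (Cy5, squares), each quantile normalised alone. The Cy5 values of Dynll2 and Dynlrb1, at -0.14 and -0.09, lie below 0 although the pool was common to all arrays.

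Relative to the neonatal pool, 9 of the 10 genes had a mean log2 ratio above 0 over the 8 arrays, against 54.4% of all genes, and 6 exceeded 1 in size, against 23.1% of all genes. This is a description, since the pool holds other organs at another age and the dyes were not swapped. The mean log2 ratios over the 8 arrays were 1.49 for Dynlt3, 1.46 for Dynlrb1, 1.34 for Dynll1, 1.21 for Dynll2, 1.17 for Dctn1, 1.14 for Dync1h1, 0.98 for Dync1i2, 0.90 for Dync1li2, 0.37 for Dync1i1 and -0.03 for Dync1li1. They are each probe's own ratio and give no order of the genes, since the second Dynll2 probe averaged 0.17 where the first averaged 1.21. The number above 1 depended on the processing. With the scanner program's processed signals Dynll1 was at 1.97, and Dync1i2 and Dync1li2 also exceeded 1, at 1.10 and 1.19. With median centring Dync1h1 was at 0.98.

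Among the roadblock light chains Dynlrb1 lay above the pool, while Dynlrb2, known from ciliated cells, had -2.94 ± 0.15 in SOD1G93A and -2.92 ± 0.11 in wild-type nerves (SD, n = 4 each). These are ratios to heart, liver and kidney RNA and not amounts of 1 transcript against another.

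The rest of the dynein machinery was described from a list of 40 measured genes, and 0 of them were called. Unadjusted p was under 0.05 for 2 of the 40, both lower, against 11.4% of all genes. Wdr34, an intermediate chain of the ciliary dynein 2, had log2 ratios of 0.55 ± 0.26 in SOD1G93A and 0.91 ± 0.13 in wild-type nerves (SD, n = 4 each) and a difference of -0.36 ± 0.13 (SE, limma adjusted p = 0.356), which was -0.21 in the Cy3 channel alone. Ccdc64, a relative of the Bicaudal D cargo adaptors, differed by -0.25 ± 0.11 (SE, limma adjusted p = 0.426), and by -0.15 without SOD1G93A replicate 1. All 4 dynein 2 genes had differences below 0, against 8388 of all 15344 genes, and the median of the 4 was -0.13.

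Among the 11 dynactin subunits other than p150, 9 had differences below 0, against 8388 of all 15344 genes. The median of the 11 was -0.12, and Dctn1, also not called, stood at 0.13. Capza1 and Capza2, which cap the short actin-like filament of dynactin and also ordinary actin, differed by -0.14 ± 0.07 and -0.18 ± 0.09 (SE), and Capzb by -0.12 ± 0.08. Dctn6, at the pointed end of that filament, differed by -0.19 ± 0.11, and Dctn2, the dynamitin subunit, by -0.17 ± 0.10. None was called (limma adjusted p from 0.470 to 0.600 for these 5), and Capza1 was the single subunit whose groups did not overlap, with SOD1G93A lower, as for 4.32% of all genes. Without SOD1G93A replicate 1 the median of the 11 was -0.07, and the differences were -0.09 for Dctn6, -0.11 for Dctn2, -0.10 for Capza2 and -0.07 for Capzb. Dctn2 was also at -0.11 without wild-type replicate 3. With the mean of a gene's kept probes, Capza1 was at -0.07, Capzb at -0.05 and Dctn6 at -0.28. The number below 0 was between 7 and 10 of 11 in the 20 alternative fits.

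The regulators Pafah1b1, Nde1 and Ndel1, which tune the dynein motor, differed by -0.002, 0.03 and 0.06, and Nudc, which works with them, by 0.18 ± 0.10 (SE, limma adjusted p = 0.515) or by 0.09 with the mean of its kept probes. Of 15 measured cargo adaptors 6 were above 0 and 9 below, and of the 3 plus-end proteins 2 were above 0. Ccdc64b, Hook1 and Spdl1 were on the array but too dim to test. Mapk8ip1, a scaffold that links kinesin and dynein cargo, had a log2 ratio to the pool of 4.96 ± 0.23 in SOD1G93A and 4.77 ± 0.21 in wild-type nerves (SD, n = 4 each).

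**Figure D3:**
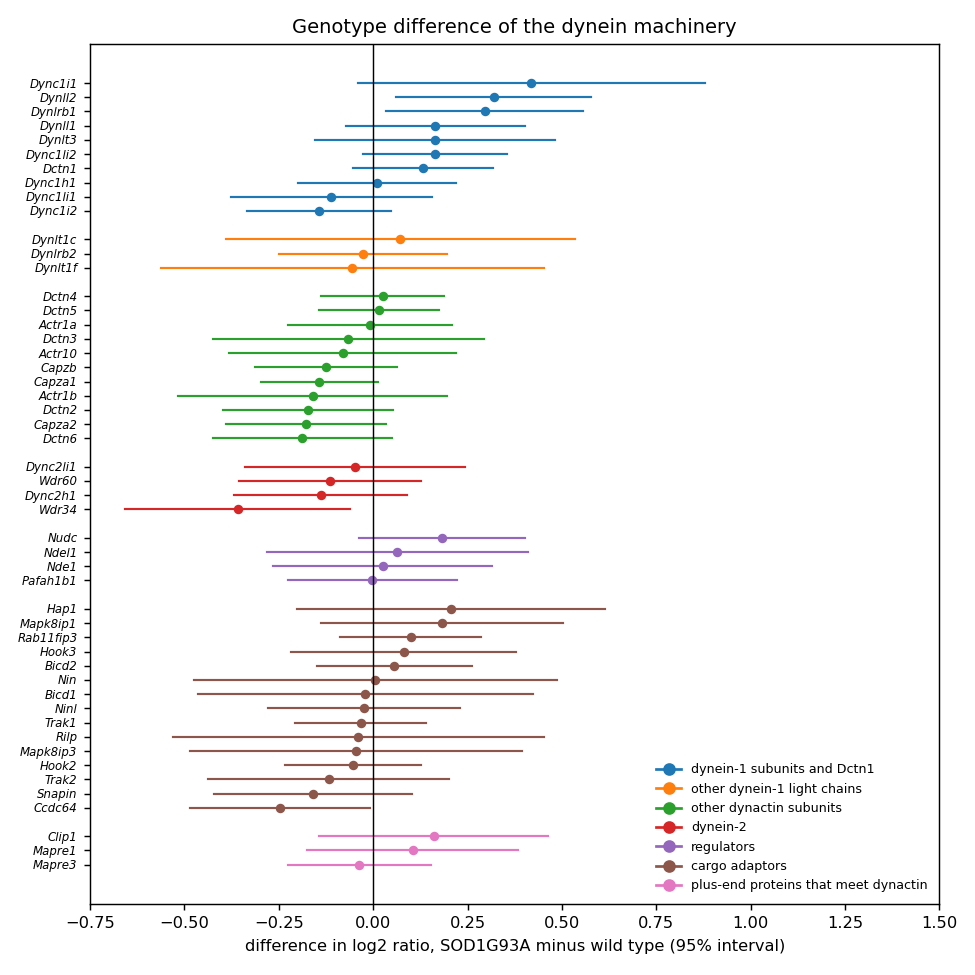
Difference in log2 ratio, SOD1G93A minus wild type, with its 95% interval from limma for the 10 genes (blue, top) and 40 further genes of the dynein machinery by role. The interval lies above 0 for Dynll2 and Dynlrb1 and below 0 for Wdr34 and Ccdc64 before adjustment, and no gene passed after it; Dynlt1c and Dynlt1f are near-identical copies whose signals may mix.

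The genes whose 8 ratios, each centred on its own mean, lay closest to those of Dync1h1 among 15343 others were Wnt1, Bloc1s3 and Pydc3, at root mean square differences of 0.0433, 0.0435 and 0.0441 on the log2 scale. For Dctn1 they were a probe named by a genome interval, Mrpl38 and the unnamed transcript TC1708101, at 0.0365, 0.0387 and 0.0393. No other member was among these neighbours: the nearest to Dync1h1 was Dynll1 at rank 2974, and the nearest to Dctn1 was Dync1li2 at rank 2382. The heavy chain and p150 stood at 0.142 from each other. These distances were not scaled by spread, so genes that vary little over the arrays lie close to one another. Among the members Dctn1 and Dync1h1 had the smallest ranges over the 8 arrays, 0.31 and 0.35. Whether any of these genes vary together was not tested.

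RefSeq promoter windows, from 250 bases before to 50 after a gene's start, were at hand for 8 of the 10 genes in 11 windows on GRCm38.p6. A GC box (GGGCGG on either strand) was found for 6 of the 8 genes, in 8 of the 11 windows, against 35.7% of 32851 windows. The windows are not all separate: both Dynlrb1 windows hold the same boxes, and the Dync1i2 windows share a box. A CCAAT box (CCAAT on either strand) was found for Dynll1 alone, against 37.4% of windows. An E-box (CACGTG), a cAMP response element (TGACGTCA) and a TATA box (TATAAA) were found in 0 of the 11, against 7.15%, 1.79% and 13.6% of windows. The windows of Dynlrb1 (chr2:155236283-155236582, plus strand), whose groups did not overlap, and of Dync1h1 (chr12:110601145-110601444, plus strand), whose groups were alike in mean, are shown with the GC boxes in capitals:
Dynlrb1 promoter: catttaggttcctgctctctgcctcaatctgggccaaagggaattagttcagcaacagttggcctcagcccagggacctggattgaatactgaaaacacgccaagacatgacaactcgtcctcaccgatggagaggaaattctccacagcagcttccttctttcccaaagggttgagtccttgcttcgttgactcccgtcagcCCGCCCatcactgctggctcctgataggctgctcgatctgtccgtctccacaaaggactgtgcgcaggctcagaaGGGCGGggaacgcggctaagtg
Dync1h1 promoter: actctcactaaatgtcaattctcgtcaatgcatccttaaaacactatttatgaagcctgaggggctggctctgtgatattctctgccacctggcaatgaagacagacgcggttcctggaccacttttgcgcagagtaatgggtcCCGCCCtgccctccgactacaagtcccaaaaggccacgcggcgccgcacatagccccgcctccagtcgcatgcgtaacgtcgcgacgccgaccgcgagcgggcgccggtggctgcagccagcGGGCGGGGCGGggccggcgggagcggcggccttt
In the Dynlrb1 window shown the boxes begin 47 bases before and 28 after the start site. A second Dynlrb1 window has a later start site, and there the same boxes begin 122 and 47 bases before it. In the Dync1h1 window they begin 106 bases before, 16 after and 21 after, where the last pair overlap. Both windows shown hold the box, and neither gene was called. Whether the box has a part in either gene's level was not tested.

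**Figure D4:**
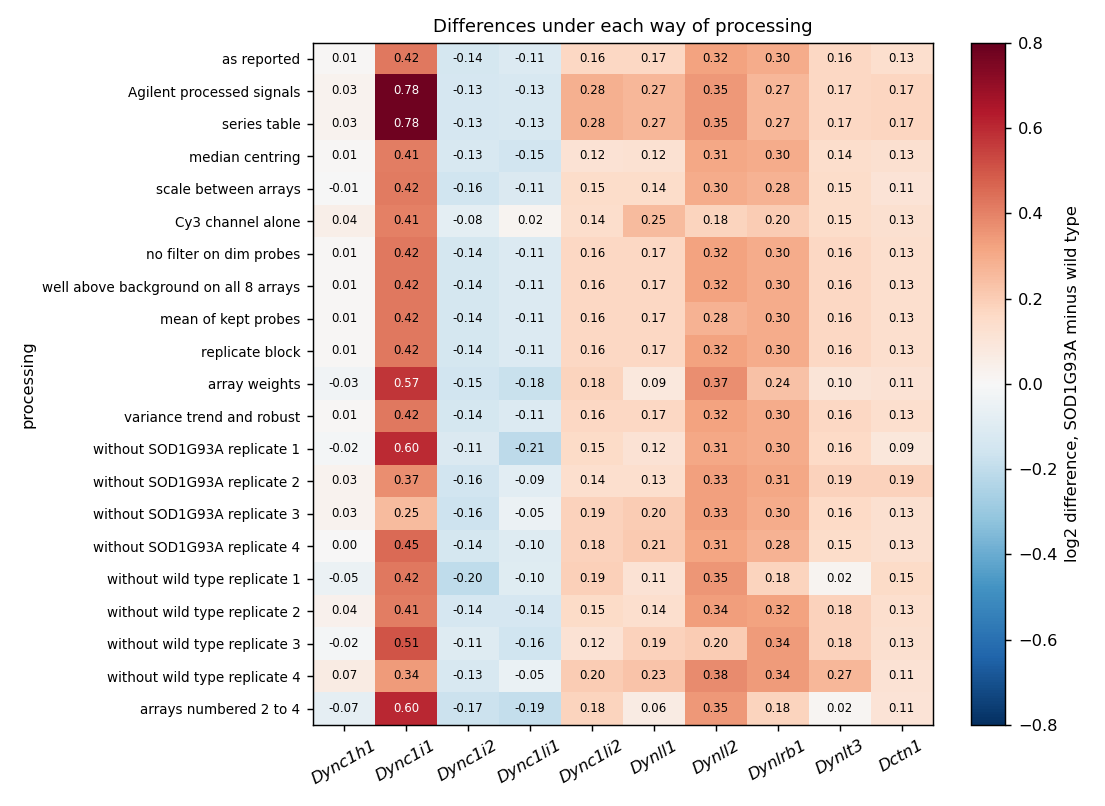
Difference in log2 ratio, SOD1G93A minus wild type, of the 10 genes (columns) under each way of processing and with each array left out (rows), red above 0 and blue below. Dynll2 stays between 0.18 and 0.38 and Dynlrb1 between 0.18 and 0.34, while Dync1h1 changes sign.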

How the data were processed

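Per the file headers, Agilent Feature Extraction 11.5.1.1 wrote each array's linear Cy3 and Cy5 intensity per spot, with background and flags. Version 11.0.1.1 and limma appear in the submitters' processing notes. The authors' series values are log10 (Cy5 over Cy3), identical to the ratio column of the scanner output; the sign was turned here.

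Mean intensity and median background were corrected by normexp (offset 50), loess was run within arrays with control spots at no weight, outlier spots were left out and spots of a probe averaged. Kept were the 19839 probes whose Cy3 signal passed the scanner's background flag on 4 or more of 8 arrays, and the brightest kept probe stood for each gene. The gene name of all 12 member probes matched the RefSeq accession. Probe positions are on mm9, per the file headers.

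Groups were compared with lmFit and eBayes (limma 3.58.1, R 4.3.3), 2-sided, Benjamini-Hochberg over all genes, threshold 0.05. The fit was tested on simulated data with noise of each gene's own spread, independent between arrays. It called 3.28% of log2 differences of 0.3, 36% of 0.5 and 83.6% of 1, so differences of 0.3 were rarely called. Each of 10 runs changed 200 of 15328 genes, drawn from all of them. The rates hold for that setting and are not rates for the 10 members. Alternatives changed the signals, normalization, filter, probe rule, block and arrays used, and the Cy5 channel was compared after seeing the data. The labels call the 4 samples of a group biological replicates, and the number of arrays limits the precision. Named are all members, the 8 other dynein genes of smallest p, and the 3 genes closest in pattern to Dync1h1 and to Dctn1; other genes were named after their values were seen. Members and lists were chosen with earlier results of these data known.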

Additional observations from a re-analysis of the deposited data

Results flagged for a closer look

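Dynlrb1 on wild-type replicate 1 had a log2 ratio of 0.956, while the other 3 wild-type arrays lay between 1.39 and 1.45. The gap to its nearest neighbour was 0.877 of the range of the group, above Dixon's 95% critical value for 4 samples. It was the 1 such value among 36 groups examined for the 18 named dynein genes, and chance flags about 1 group in 20. The same array had the highest skeletal muscle marker mean, 2.80. It also had the highest adipocyte, smooth muscle and pericyte, and endothelial marker means, at 1.16, 1.00 and 0.44. Its myelinating Schwann cell mean was the lowest, at -0.31. Wild-type replicate 2 had the next highest muscle mean, 1.87, with a Dynlrb1 ratio of 1.39. The part of any of these in the value was not tested.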

How the results depend on the processing

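The number of members called was 0, and of other dynein genes 0, in all 20 alternative fits. The number of genes called overall was unstable: 25 as reported, 6 from the scanner's processed signals or from the series table, 1 with median centring, 16 with no filter on dim probes, 412 with array weights, 233 on the arrays numbered 2 to 4, and 3 to 179 with one array left out (179 without SOD1G93A replicate 1, 3 without SOD1G93A replicate 4 or wild-type replicates 2 or 3, 4 without SOD1G93A replicate 3, 9 without SOD1G93A replicate 2 or wild-type replicate 1, 16 without wild-type replicate 4). The causes were not tested. With the replicate number as a block (replicate block) 1 gene was called. Deviations of same-numbered arrays correlated at -0.164, 0.0412, -0.113 and 0.103 over genes, and 0 of 8 arrays correlated best with its own number. No pairing by number was seen in these correlations, which could miss a weak one. Dync1h1 turned to -0.0061 with scale normalization, -0.025 with array weights, -0.015 without SOD1G93A replicate 1, -0.049 without wild-type replicate 1, -0.015 without wild-type replicate 3 (highest 0.067, without wild-type replicate 4) and -0.074 on the arrays numbered 2 to 4, and Dync1li1 to 0.019 in the Cy3 channel alone. The 16 other named genes kept their direction. An absent call with 4 arrays a group does not show equal levels.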
